A study of Homo sapiens with 18 samples.

Results

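The genes described here are 10 transcripts through which output of the MAPK cascade is usually read, namely the phosphatases *DUSP4*, *DUSP5* and *DUSP6*, the inhibitors *SPRY2*, *SPRY4*, *SPRED1* and *SPRED2*, the ETS factors *ETV4* and *ETV5*, and *PHLDA1*. They were taken by gene name from the non-control spots of every array, which gave 10 of 36204 gene names and 12 of 50599 probes. The study profiled HT29, a human colorectal adenocarcinoma line, and HTOXAR3, a resistant subline selected from HT29 under rising concentrations of oxaliplatin (OXA), on 18 one-colour Agilent arrays with 3 arrays per group. Both lines were measured untreated, after 24 h with OXA (10 µM for HT29 and 30 µM for HTOXAR3), and after 24 h with the same dose of OXA plus 10 µM Curcumin. The untreated groups are also called vehicle-treated in the study. A comparison of the lines after treatment is therefore also a comparison of both doses of OXA, HTOXAR3 is a single derived subline, and Curcumin given alone was not analysed here. The study calls the 3 arrays of a group biological replicates.

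In the MAPK cascade, growth factor receptors act through GRB2, SOS and RAS to switch on RAF kinases, which phosphorylate MEK, which phosphorylates ERK. Active ERK raises transcription of a set of genes that turn the pathway down again. DUSP4, DUSP5 and DUSP6 remove the activating phosphates from ERK or related kinases, Sprouty and SPRED proteins restrain the cascade at the level of RAS and RAF, and ETV4 and ETV5 are PEA3-type ETS transcription factors that carry part of its output. *PHLDA1* encodes a pleckstrin homology-like protein that is also used as a readout of ERK activity. The levels of these transcripts are often combined as a measure of ERK output, and HT29 is known to carry an activating *BRAF* mutation. None of the values below measures ERK phosphorylation or any protein.

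Of the 35116 transcription starts in RefSeq's promoter table (build GRCh38.p14), 9 starts of 6 of these genes were used. Those of *DUSP6* and *SPRED1*, which share the response to OXA described below, and of *SPRY2* and *PHLDA1*, which share the difference between the untreated lines, are shown as the 250 bases before the start. For *SPRY2* the most upstream of its listed starts is given. Each was searched on both strands for the ETS core CCGGAA, the cyclic AMP response element TGACGTCA, the AP-1 site TGANTCA, the CArG box and the κB motif. Capitals mark the ETS core (CCGGAA, or TTCCGG on the other strand).
DUSP6, chr12:89352502-89352751, minus strand: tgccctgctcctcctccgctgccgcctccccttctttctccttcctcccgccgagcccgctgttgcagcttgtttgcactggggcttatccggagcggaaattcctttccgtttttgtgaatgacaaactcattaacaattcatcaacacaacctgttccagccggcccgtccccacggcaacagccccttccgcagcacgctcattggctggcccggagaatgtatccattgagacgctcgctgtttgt
SPRED1, chr15:38252586-38252835, plus strand: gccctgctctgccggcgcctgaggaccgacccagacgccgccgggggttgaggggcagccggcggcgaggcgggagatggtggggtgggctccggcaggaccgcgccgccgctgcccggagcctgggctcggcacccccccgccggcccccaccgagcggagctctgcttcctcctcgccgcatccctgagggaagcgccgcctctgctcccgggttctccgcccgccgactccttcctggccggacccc
SPRY2, chr13:80341127-80341376, minus strand: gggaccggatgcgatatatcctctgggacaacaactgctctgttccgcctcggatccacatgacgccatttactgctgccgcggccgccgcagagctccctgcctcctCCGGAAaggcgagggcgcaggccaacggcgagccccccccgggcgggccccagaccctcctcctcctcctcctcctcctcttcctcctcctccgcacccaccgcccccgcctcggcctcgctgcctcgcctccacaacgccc
PHLDA1, chr12:76031777-76032026, minus strand: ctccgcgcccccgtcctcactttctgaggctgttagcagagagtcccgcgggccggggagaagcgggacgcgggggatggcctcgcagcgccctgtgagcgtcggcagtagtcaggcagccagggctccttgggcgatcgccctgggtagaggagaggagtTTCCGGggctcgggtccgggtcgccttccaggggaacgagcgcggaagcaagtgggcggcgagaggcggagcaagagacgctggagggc

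An ETS core was found before 2 of the 9 starts, once in the *SPRY2* window and once in that of *PHLDA1*, and 14.5% of all promoters of the same length held one. None of the 9 windows held the other motifs, which occurred in 1.65% (cyclic AMP response element), 6.57% (AP-1), 1.16% (CArG box) and 9.96% (κB) of all promoters. These letters were searched in a short window, so the counts describe the sequence and not the binding of any factor. *DUSP4*, *DUSP5*, *ETV4* and *ETV5* had no entry that was used.

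On the arrays each gene was read by a single probe, except *SPRY4* and *PHLDA1*, which had 2. According to the annotation of the array on GRCh37, the probes lie on the genome at chr8:29194382-29194441 (*DUSP4*), chr10:112270900-112270959 (*DUSP5*), chr12:89742144-89742203 (*DUSP6*), chr13:80910622-80910681 (*SPRY2*), chr5:141690571-141690630 (*SPRY4*) and chr15:38645760-38645819 (*SPRED1*). Those of *SPRED2*, *ETV4*, *ETV5* and *PHLDA1* lie at chr2:65538851-65538910, chr17:41605966-41606025, chr3:185764547-185764606 and chr12:76419627-76419686. *DUSP5* and *SPRED1* are read from the plus strand and the others from the minus strand. Whether a probe falls in coding sequence or in a UTR was not derived here. Each of these probes was well above background on all 18 arrays and saturated on none. The second *PHLDA1* probe was well above background on 0 of 18 arrays and has only a bound. The second *SPRY4* probe was well above background on 18 arrays, with group means from 5.99 to 6.34 on the log2 scale.

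The share of spots well above background was 52.4% to 63.6% per array, and arrays of the same group correlated at 0.985 or more. The arrays lay on 3 slides, of which 1 held only an untreated and an OXA-treated HT29 array, and the other 2 slides held all 6 groups. Of 10 colon epithelial markers, 8 were well above background on all 18 arrays, while *CDX2* was so on 10 and *CEACAM5* on 16. Of 8 markers of blood, endothelial and fibroblast cells, 3 were well above background on all 18 arrays (*CD14*, *PTPRC* and *VWF*) and *COL1A2* on 0. The summed linear intensity of these 8 markers, most of it from *CD14* (10.19 to 11.52 on the log2 scale), was 2430 to 2740 in untreated HT29, 1530 to 1590 after OXA and 1850 to 2460 after OXA plus Curcumin. In HTOXAR3 it was 3070 to 3260, 2200 to 2340 and 2210 to 2350, and its part in the results below was not tested. Each array measured the RNA of a whole culture, so fewer cells expressing a gene and less of its RNA per cell cannot be told apart.

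All values are log2 intensities after background correction and quantile normalization, and differences between group means carry the standard error (SE) that a limma model of all 18 arrays gave them. A gene is said to have risen or fallen only where it was called, that is, at a Benjamini-Yekutieli (BY) adjusted p under 0.05, taken over all gene names, together with a change of more than 1.2-fold. Over the 10 genes and 18 arrays the values ran from 7.11 to 13.71. The SD within a group had a median of 0.07 and reached at most 0.25.

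**Figure D1:**
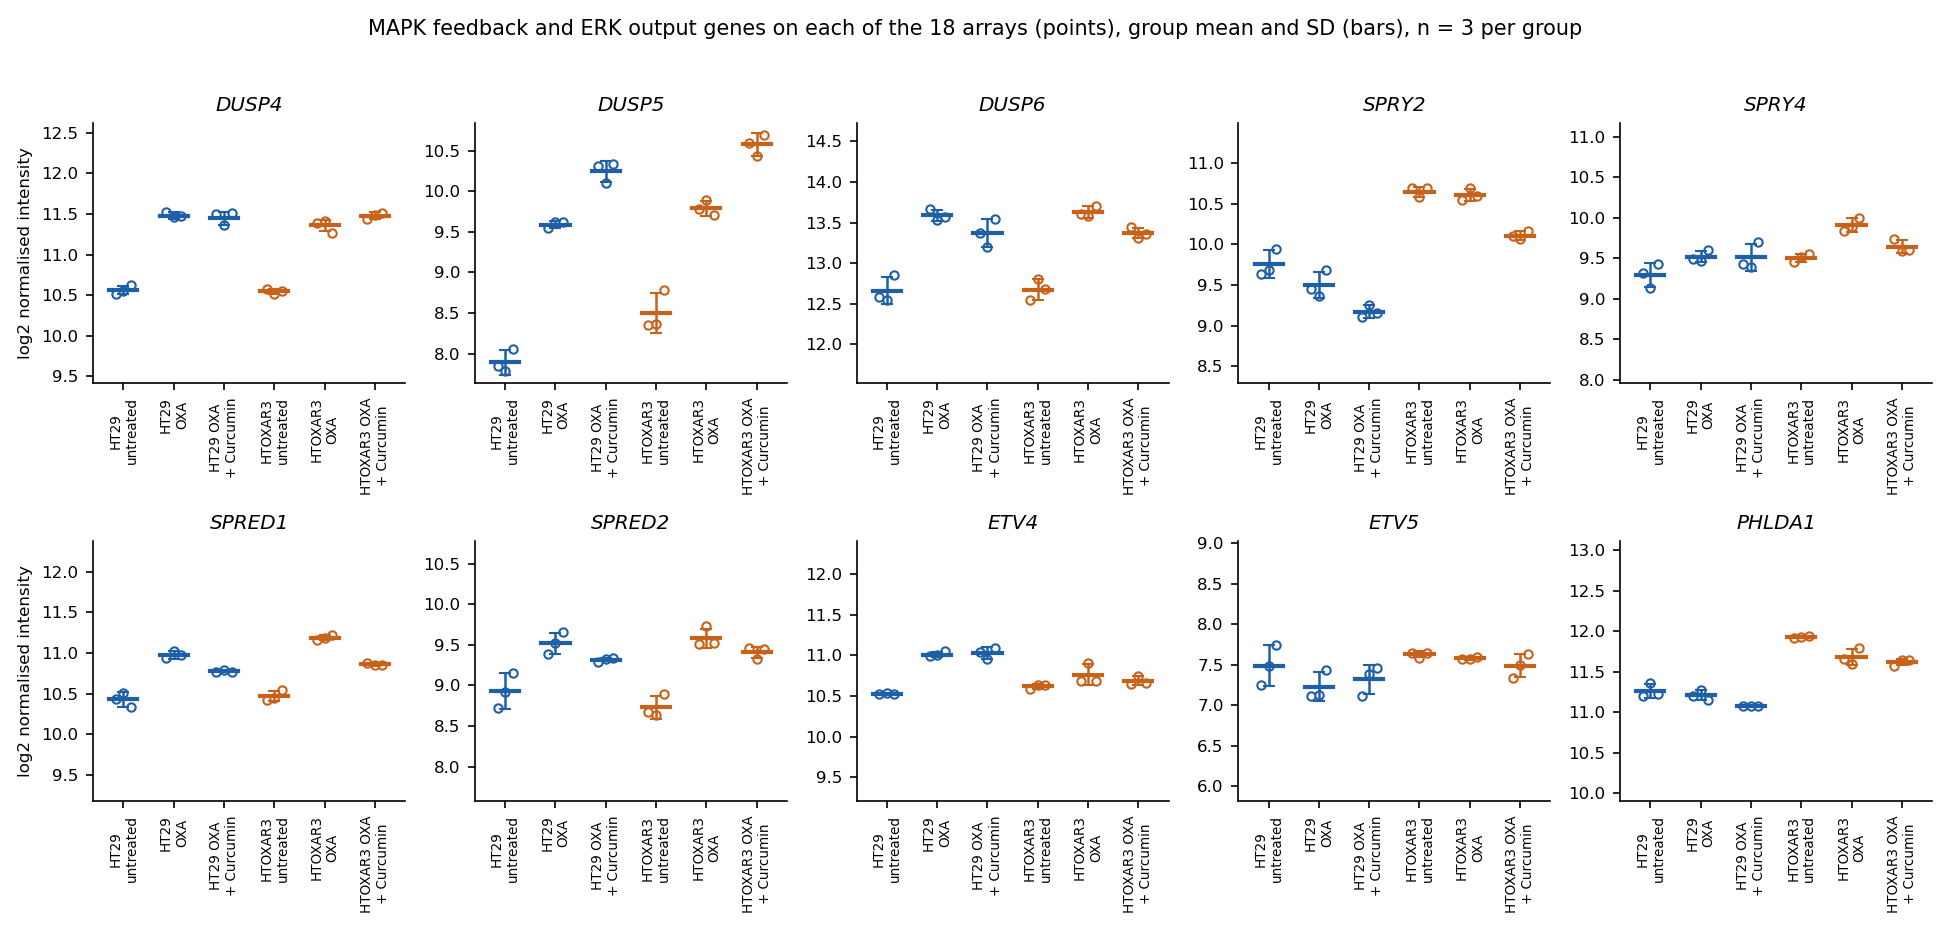
Log2 normalised intensity of the 10 genes on each array (open points), with the mean (thick bar) and SD (thin bar) of the 3 arrays of a group. The vertical axes differ in position but span the same range, HT29 is drawn in blue and HTOXAR3 in orange. *DUSP4*, *DUSP5*, *DUSP6*, *SPRED1* and *SPRED2* stand higher after OXA in both lines, and *SPRY2* and *PHLDA1* stand higher in all HTOXAR3 groups than in any HT29 group.

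Exposure to OXA was followed by higher transcript levels of the 3 phosphatases and of *SPRED1* and *SPRED2* in both lines. In HT29, 6 of the 10 genes rose and 0 fell, where 15.9% of all gene names were called. Among the 17463 names that, like these 10, were well above background on every array, 31.0% were called. In HTOXAR3, 5 rose and 0 fell, where 10.2% of all names and 20% of those well above background everywhere were called. *DUSP4*, *DUSP5*, *DUSP6*, *SPRED1* and *SPRED2* rose in both lines, and *ETV4* was called in HT29 alone. The rises spanned 1.39-fold to 3.25-fold in HT29 and 1.64-fold to 2.45-fold in HTOXAR3. The median log2 difference of the 10 genes was 0.52 in HT29 and 0.56 in HTOXAR3, against -0.01 and 0.01 over all gene names.

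Adding Curcumin to OXA moved fewer of the genes. In HT29, 1 gene rose and 0 fell, where 5.53% of all names and 10.9% of those well above background everywhere were called. In HTOXAR3, 1 rose and 2 fell, with 8.83% and 17.3% called. *DUSP5* rose in both lines, and *SPRY2* and *SPRED1* fell in HTOXAR3. The median log2 difference was -0.08 in HT29 and -0.12 in HTOXAR3, and -0.02 over all names in each line. This comparison shares its OXA arrays with the response to OXA.

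Against untreated cells of the same line, OXA plus Curcumin raised 5 of the 10 genes and lowered 1 in HT29, where 18.6% of all names and 35.6% of those well above background everywhere were called. In HTOXAR3 it raised 5 and lowered 2, with 17.5% and 33.4% called. *DUSP4*, *DUSP5*, *DUSP6* and *SPRED1* rose and *SPRY2* fell in both lines. *ETV4* rose in HT29, *SPRED2* rose in HTOXAR3 and *PHLDA1* fell in HTOXAR3. The untreated arrays are shared with the response to OXA alone, and the values of both comparisons are given side by side for each gene below.

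**Figure D2:**
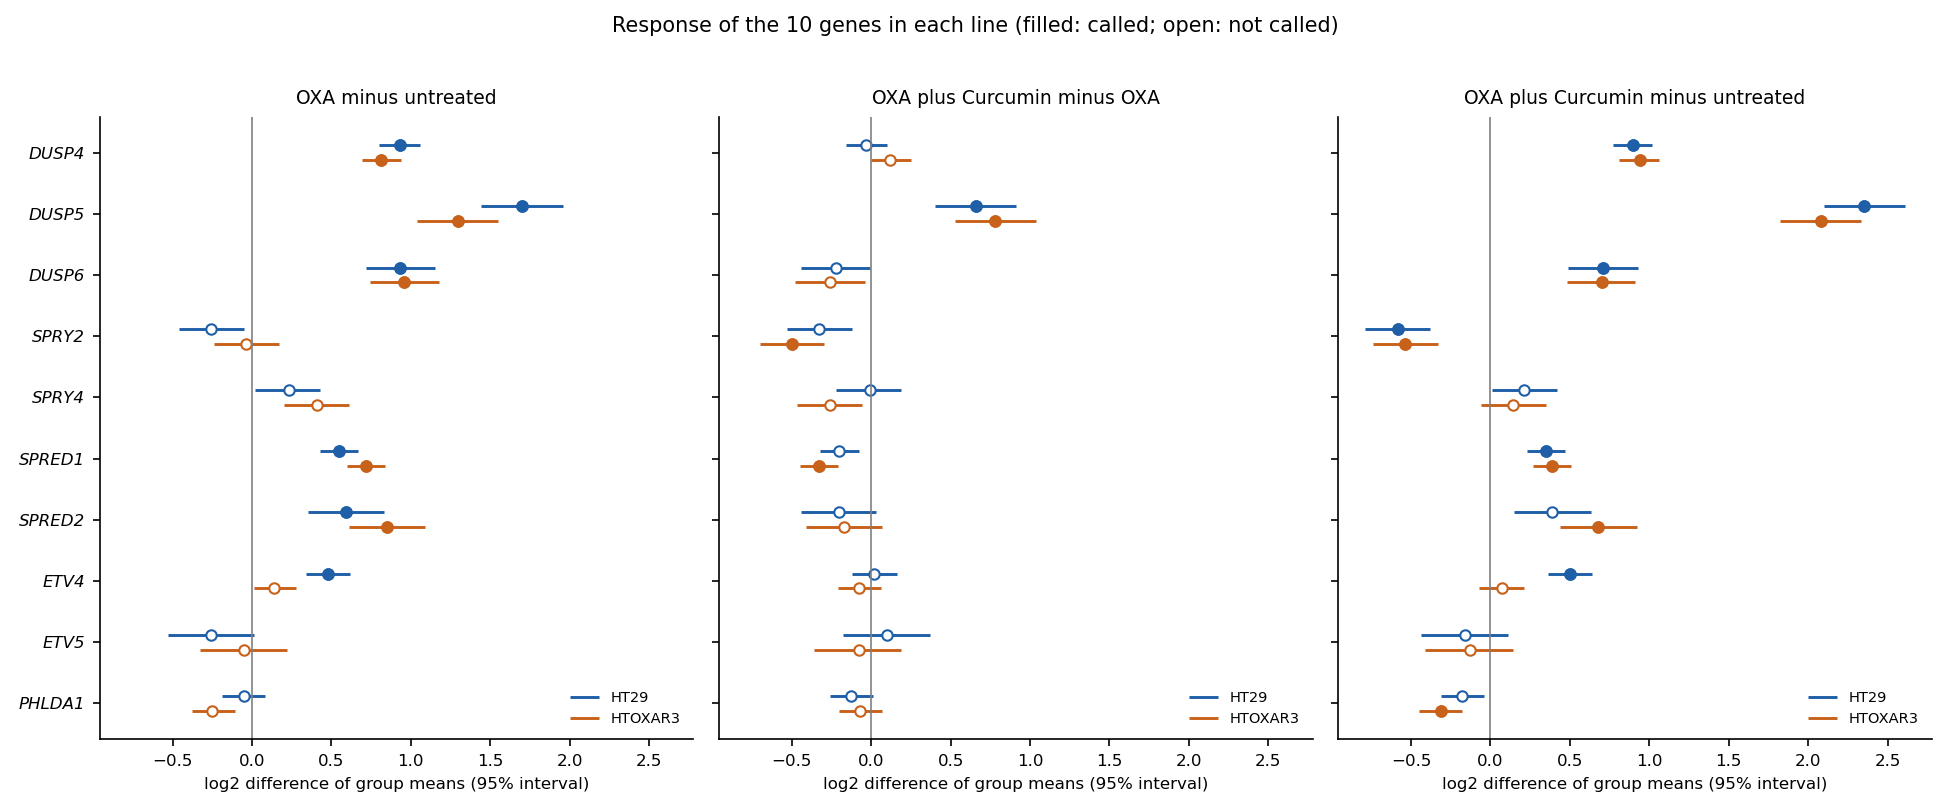
Log2 differences of group means (horizontal axis) with their 95% intervals for the 10 genes in HT29 (blue) and HTOXAR3 (orange), for OXA against untreated, OXA plus Curcumin against OXA, and OXA plus Curcumin against untreated. Filled points passed the call and open points did not. *DUSP5* lies to the right of 0 in all 3 panels, *DUSP4*, *DUSP6*, *SPRED1* and *SPRED2* respond to OXA in both lines, and *SPRY2* lies to the left of 0 in all 3 panels, with filled points in HTOXAR3 on adding Curcumin and in both lines for the combination.

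*DUSP5*, a nuclear phosphatase that acts on ERK, varied most of the 10 genes, with group means spread over 2.69 on the log2 scale (6.45-fold). Its values were 7.85, 7.78 and 8.06 in untreated HT29, 9.55, 9.62 and 9.62 after OXA, and 10.31, 10.10 and 10.34 after OXA plus Curcumin. In HTOXAR3 they were 8.35, 8.37 and 8.78, then 9.78, 9.89 and 9.71, then 10.60, 10.43 and 10.70. Every treated array lay above every untreated one, and in the order of the 6 group means no neighbouring groups overlapped. The log2 rise with OXA was 1.70 in HT29 (SE 0.12, 3.25-fold, adjusted p = 1.29e-06, limma with BY) and 1.30 in HTOXAR3 (SE 0.12, 2.45-fold, adjusted p = 4.26e-05). Adding Curcumin raised it further, by 0.66 in HT29 (SE 0.12, 1.58-fold, adjusted p = 0.0227) and by 0.78 in HTOXAR3 (SE 0.12, 1.72-fold, adjusted p = 0.00391). OXA plus Curcumin stood 2.35 above untreated HT29 (5.11-fold) and 2.08 above untreated HTOXAR3 (4.22-fold). The rise on adding Curcumin in HT29 lost its call, at adjusted p = 0.0863 to 0.13, without replicate 1, 2 or 3 of the OXA arrays or replicate 1 or 3 of the OXA plus Curcumin arrays.

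*DUSP4*, a nuclear phosphatase of ERK and related kinases, split into treated and untreated arrays with no overlap in either line. It read 10.51, 10.55 and 10.62 in untreated HT29, 11.53, 11.46 and 11.47 after OXA, and 11.50, 11.36 and 11.51 after OXA plus Curcumin. The HTOXAR3 values were 10.58, 10.51 and 10.55 untreated, 11.39, 11.41 and 11.27 after OXA, and 11.44, 11.49 and 11.51 after the combination. In the order of the group means each treated group overlapped the next, as did both untreated groups, and 0.80 separated the lowest treated mean from the higher untreated mean. OXA raised it by 0.93 in HT29 (SE 0.06, adjusted p = 5.12e-07) and by 0.81 in HTOXAR3 (SE 0.06, adjusted p = 6.03e-06), by limma with BY. After OXA plus Curcumin the rises were 0.90 and 0.94. Adding Curcumin to OXA gave differences of -0.03 (95% interval -0.16 to 0.10) in HT29 and 0.12 (0.00 to 0.25) in HTOXAR3, neither of them called.

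*DUSP6*, the cytoplasmic ERK phosphatase, showed the same division. Its values were 12.58, 12.54 and 12.85 in untreated HT29, 13.67, 13.53 and 13.57 after OXA, and 13.37, 13.20 and 13.54 after OXA plus Curcumin. In HTOXAR3 it measured 12.54, 12.80 and 12.68 untreated, 13.61, 13.58 and 13.71 after OXA, and 13.44, 13.31 and 13.36 after the combination. All treated arrays were higher than all untreated ones, and the 4 treated groups overlapped their neighbours. The rise with OXA was 0.93 in HT29 (SE 0.10, 1.91-fold, adjusted p = 8.26e-05, limma with BY) and 0.96 in HTOXAR3 (SE 0.10, 1.94-fold, adjusted p = 0.000144). Adding Curcumin to OXA gave differences of -0.22 in HT29 (95% interval -0.44 to -0.01) and -0.26 in HTOXAR3 (-0.48 to -0.04), with adjusted p = 1 in each line. Against untreated cells the combination still gave rises of 0.71 (adjusted p = 0.000848) and 0.70 (adjusted p = 0.00111).

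*SPRED1*, which recruits the RAS inhibitor neurofibromin to the membrane, rose with OXA and lay lower when Curcumin was added. Untreated HT29 gave 10.43, 10.51 and 10.34, OXA gave 10.94, 11.03 and 10.97, and the combination 10.77, 10.79 and 10.77. In HTOXAR3 the values were 10.42, 10.45 and 10.54, then 11.16, 11.18 and 11.22, then 10.88, 10.85 and 10.85. The 4 treated groups did not overlap their neighbours in rank, whereas the untreated groups of both lines did overlap. OXA raised it by 0.55 in HT29 (SE 0.06, 1.46-fold, adjusted p = 4.41e-05, limma with BY) and by 0.72 in HTOXAR3 (SE 0.06, 1.64-fold, adjusted p = 9.66e-06). Adding Curcumin lowered it by a called difference in HTOXAR3 (-0.33, SE 0.06, 1.25-fold, adjusted p = 0.00917), and the difference in HT29 was -0.20 (SE 0.06, adjusted p = 0.334), without a call. The fall in HTOXAR3 was not called without replicate 3 of the combination (adjusted p = 0.0553) or replicate 3 of OXA (adjusted p = 0.0591). Relative to untreated cells the combination left rises of 0.35 and 0.39.

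*SPRED2*, its close relative, had the values 8.72, 8.92 and 9.16 in untreated HT29, 9.39, 9.52 and 9.66 after OXA, and 9.29, 9.33 and 9.34 after OXA plus Curcumin. For HTOXAR3 they were 8.67, 8.63 and 8.89, then 9.51, 9.73 and 9.52, then 9.46, 9.33 and 9.45. All treated arrays exceeded all untreated arrays, and the treated groups overlapped their neighbours in rank. The rise with OXA was 0.59 in HT29 (SE 0.11, 1.51-fold, adjusted p = 0.0103, limma with BY) and 0.85 in HTOXAR3 (SE 0.11, 1.8-fold, adjusted p = 0.00086). The call in HT29 was lost without replicate 1 of the untreated arrays (adjusted p = 0.0583) or replicate 3 of the OXA arrays (adjusted p = 0.0663). After the combination it stood 0.68 above untreated HTOXAR3 (adjusted p = 0.00289) and 0.39 above untreated HT29 (adjusted p = 0.169), the latter called with Benjamini-Hochberg (BH) adjustment (adjusted p = 0.0153) and without replicate 3 of untreated HT29 (BY adjusted p = 0.031). Adding Curcumin to OXA gave -0.20 and -0.17, neither of them called.

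*SPRY2*, a Sprouty inhibitor of receptor signalling to RAS, separated the lines. All 9 arrays of HTOXAR3 (10.07 to 10.69) lay above all 9 of HT29 (9.10 to 9.95). Untreated HT29 read 9.63, 9.69 and 9.95, OXA 9.45, 9.36 and 9.68, and OXA plus Curcumin 9.10, 9.25 and 9.16. The HTOXAR3 values were 10.69, 10.58 and 10.69 untreated, 10.55, 10.69 and 10.60 after OXA, and 10.11, 10.07 and 10.17 after the combination. In each line the OXA arrays overlapped the untreated ones and the combination arrays lay below both. Before treatment HTOXAR3 was 0.90 higher (SE 0.09, 1.86-fold, adjusted p = 8.13e-05, limma with BY). OXA alone gave differences of -0.26 in HT29 (95% interval -0.46 to -0.05, adjusted p = 0.707) and -0.04 in HTOXAR3 (-0.24 to 0.17, adjusted p = 1). The combination lowered it against untreated cells by a log2 difference of -0.58 in HT29 (SE 0.09, 1.5-fold, adjusted p = 0.00265) and -0.54 in HTOXAR3 (SE 0.09, 1.45-fold, adjusted p = 0.00583).

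The part of this fall seen on adding Curcumin to OXA was -0.50 in HTOXAR3 (SE 0.09, adjusted p = 0.0206, limma with BY) and -0.33 in HT29 (SE 0.09, BY adjusted p = 0.404, BH adjusted p = 0.0365). In HTOXAR3 it lost its call whichever of the 3 OXA or 3 OXA plus Curcumin arrays was left out, with adjusted p = 0.0532 to 0.123 and differences of -0.46 to -0.53. The difference between the lines in this step was -0.17 (95% interval -0.46 to 0.11) and was not called.

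*SPRY4*, a second Sprouty gene, was called in 0 of the 7 comparisons of groups. Its arrays ran from 9.13 to 9.43 in untreated HT29, 9.47 to 9.60 after OXA and 9.39 to 9.70 after the combination. In HTOXAR3 they ran from 9.45 to 9.55, 9.83 to 10.00 and 9.59 to 9.74. The 3 arrays of HTOXAR3 after OXA lay above the other 15 arrays, and the difference from untreated HTOXAR3 was 0.41 (SE 0.09, BY adjusted p = 0.0769, BH adjusted p = 0.00695, limma). It was called with the replicate number as a block (BY adjusted p = 0.0317), with a normexp offset of 50 (0.0275), from the processed signal scaled to the 75th percentile (0.0431) and after a filter on dim probes (0.032). The second probe gave 0.35 (SE 0.19) there, but -0.25 (SE 0.19) between the untreated lines where the brighter probe gave 0.21 (SE 0.10).

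*ETV4*, a PEA3-type ETS factor, responded to OXA in HT29. Its values were 10.53, 10.54 and 10.53 in untreated HT29, 10.99, 11.01 and 11.05 after OXA, and 11.04, 10.96 and 11.09 after OXA plus Curcumin. In HTOXAR3 the corresponding values were 10.59, 10.64 and 10.63, then 10.69, 10.91 and 10.69, then 10.65, 10.75 and 10.66. All 6 treated HT29 arrays lay above all HTOXAR3 arrays, and untreated HT29 lay below all others. OXA raised it by 0.48 in HT29 (SE 0.06, 1.39-fold, adjusted p = 0.000592, limma with BY), and OXA plus Curcumin by 0.50 (SE 0.06, 1.41-fold, adjusted p = 0.000347). In HTOXAR3 the differences were 0.14 (95% interval 0.01 to 0.28) and 0.07 (-0.07 to 0.21), with adjusted p = 1 for both.

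*ETV5*, the related factor, was called in 0 of 7 comparisons. Its arrays ran from 7.25 to 7.74 in untreated HT29, 7.11 to 7.44 after OXA and 7.12 to 7.46 after the combination, and from 7.58 to 7.65, 7.57 to 7.59 and 7.34 to 7.63 in HTOXAR3. All neighbouring groups in rank overlapped. The differences with OXA were -0.26 (95% interval -0.53 to 0.01) in HT29 and -0.05 (-0.33 to 0.22) in HTOXAR3.

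*PHLDA1* also separated the lines, all 9 HTOXAR3 arrays (11.57 to 11.94) lying above all 9 HT29 arrays (11.08 to 11.36). It read 11.20, 11.36 and 11.22 in untreated HT29, 11.20, 11.27 and 11.15 after OXA, and 11.08 on all 3 arrays after OXA plus Curcumin. In HTOXAR3 the values were 11.92, 11.93 and 11.94, then 11.66, 11.59 and 11.79, then 11.57, 11.64 and 11.64. The untreated HTOXAR3 arrays were the highest of all. The difference between the untreated lines was 0.67 (SE 0.06, 1.59-fold, adjusted p = 2.39e-05, limma with BY). In HTOXAR3 the combination lowered it against untreated cells (-0.31, SE 0.06, 1.24-fold, adjusted p = 0.0152), and OXA alone gave -0.25 (SE 0.06, adjusted p = 0.119). The fall lost its call, at adjusted p = 0.0509 to 0.0903, without any 1 of the 3 untreated arrays or replicate 1 or 2 of the combination, and with scaling to the 75th percentile in place of quantile normalization (-0.26, adjusted p = 0.0752). Averaging in the second probe, which was not above background, gave 0.22 between the untreated lines and -0.05 for the combination in HTOXAR3, neither called.

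Before treatment, then, 3 of the 10 genes were higher in HTOXAR3 and 0 were lower, where 11.5% of all names and 21.5% of those well above background everywhere were called. These were *SPRY2*, *PHLDA1* and *DUSP5* (0.60, SE 0.12, 1.52-fold, adjusted p = 0.0207, limma with BY). The call of *DUSP5* was lost without replicate 1 (adjusted p = 0.105) or 2 (0.13) of untreated HT29, or replicate 3 of untreated HTOXAR3 (0.0843), whose value of 8.78 stood above the other 2 arrays. *DUSP4*, *DUSP6* and *SPRED1* differed by -0.01 (95% interval -0.14 to 0.12), 0.02 (-0.20 to 0.23) and 0.04 (-0.08 to 0.16). The median of the 10 genes was 0.12, against -0.03 over all names. Of the 10 colon epithelial markers, *VIL1* (-1.61, adjusted p = 1.61e-08) and *LGALS4* (-2.08, adjusted p = 1.24e-09) were lower in untreated HTOXAR3, and *CDX2*, not well above background on every array, differed by -2.17 (adjusted p = 0.142). The other markers were not called either, at -1.2 (*CEACAM5*), -0.19 (*EPCAM*), -0.03 (*CDH1* and *CDX1*), -0.02 (*KRT20*), 0.14 (*KRT18*) and 0.17 (*KRT8*). Their part in the differences between the lines was not tested.

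Whether the lines responded differently was tested as the response in HTOXAR3 minus that in HT29. For OXA, 0 of the 10 genes were called by limma with BY (1.01% of all names), 0 with BH (3.00%), and 3 had an unadjusted p below 0.05 (13.7%). For the effect of adding Curcumin these counts were 0 (0.135% of all names), 0 (0.892%) and 0 (9.74%). For OXA plus Curcumin they were 0 (0.856% of all names), 1 (3.44%) and 1 (14.4%). The gene called with BH was *ETV4*, whose response to the combination was lower in HTOXAR3 (-0.43, SE 0.09, 95% interval -0.63 to -0.23, BY adjusted p = 0.208, BH adjusted p = 0.0188), and with a normexp offset of 50 it was called with BY as well (-0.42, adjusted p = 0.0492). Its response to OXA differed by -0.34 (95% interval -0.53 to -0.14, BY adjusted p = 0.774, BH adjusted p = 0.0699). For the response of *DUSP5* to OXA it was -0.40 (-0.77 to -0.04, adjusted p = 1). For *DUSP6* the difference between the lines was 0.02 (-0.28 to 0.33). The lines received different doses of OXA, so the line and the dose cannot be told apart in these differences.

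**Figure D3:**
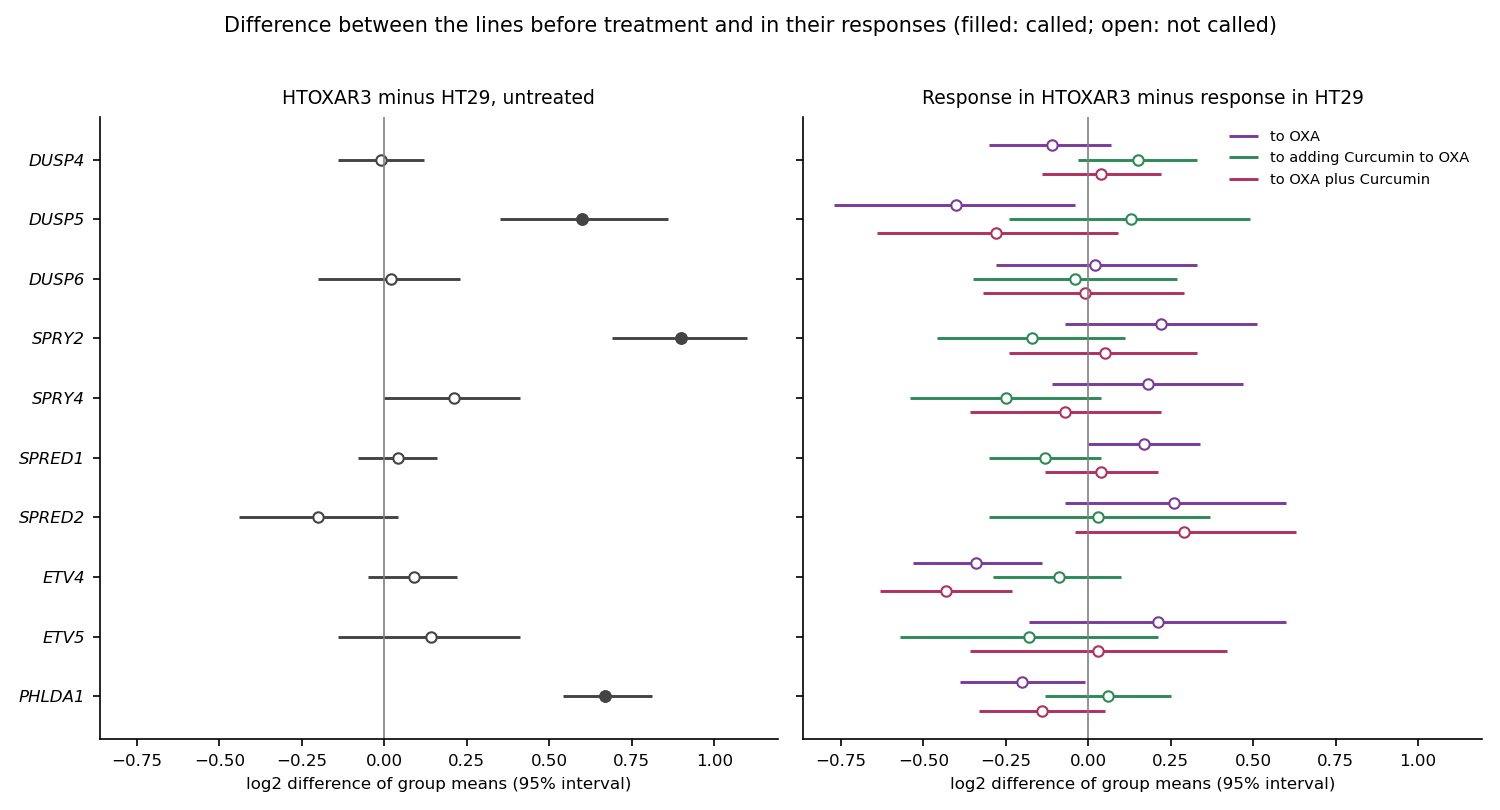
Left, log2 difference between untreated HTOXAR3 and untreated HT29 for the 10 genes. Right, response in HTOXAR3 minus response in HT29 for OXA, for adding Curcumin to OXA, and for OXA plus Curcumin, with lines for 95% intervals. Filled points passed the call (*DUSP5*, *SPRY2* and *PHLDA1* on the left, 0 on the right), and the value farthest below 0 on the right is that of *ETV4* for OXA plus Curcumin (-0.43).

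Genes of the cascade itself were compared as a list of 21 adaptors, RAS proteins, kinases and RAS regulators, all on the array. With OXA, 4 rose and 4 fell in HT29 and 5 rose and 1 fell in HTOXAR3, with median log2 differences of 0.00 and 0.12. With the mean of all probes, 5 in place of 8 were called in HT29, where all names went to 14.3%. The called shares of 38.1% and 28.6% stand beside 15.9% and 10.2% of all names, and 31.0% and 20% of those well above background everywhere. In HT29 the largest rises were those of *MAPK3*, which encodes ERK1 (0.94, SE 0.06, adjusted p = 8.45e-07, limma with BY), and *GAB1*, a docking protein (0.93, SE 0.10, adjusted p = 9.61e-05). The largest fall there was that of *RPS6KA3*, which encodes the ERK substrate RSK2 (-0.67, SE 0.09, adjusted p = 0.000473). In HTOXAR3 *GAB1* (1.00, SE 0.10, adjusted p = 0.000115) and *BRAF* (0.54, SE 0.06, adjusted p = 0.000189) rose most, and *RPS6KA3* fell (-0.76, SE 0.09, adjusted p = 0.000322). *RPS6KA3* had means of 12.71 and 12.54 in the untreated lines and 12.04 and 11.78 after OXA.

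Adding Curcumin raised 1 cascade gene and lowered 0 in HT29, and raised 2 and lowered 1 in HTOXAR3, or 4.76% and 14.3% of the list beside 5.53% and 8.83% of all names, and 10.9% and 17.3% of those well above background everywhere. The adaptor gene *SHC1* rose in both (0.28, adjusted p = 0.0432, and 0.39, adjusted p = 0.00202), *NRAS* rose (0.38) and *HRAS* fell (-0.33) in HTOXAR3. The call of *SHC1* in HT29 was lost with scaling to the 75th percentile and with the mean of all probes, each of which left 0 cascade genes called there. Against untreated cells the combination raised 5 and lowered 3 in HT29 and raised 6 and lowered 2 in HTOXAR3, 38.1% of the list in each line beside 18.6% and 17.5% of all names, and 35.6% and 33.4% of those well above background everywhere. The largest rises were those of *MAPK3* (1.06) and *GAB1* (0.89) in HT29 and of *GAB1* (0.87) and *BRAF* (0.58) in HTOXAR3. *RPS6KA3* (-0.81 and -0.78) and *HRAS* (-0.42 and -0.37) fell most in both lines. Between the untreated lines *MAPK3* was higher (0.50, SE 0.06, adjusted p = 0.000464) and *HRAS* lower (-0.27, SE 0.05, adjusted p = 0.0113) in HTOXAR3, 9.52% of the list beside 11.5% of all names and 21.5% of those well above background everywhere.

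A further list held 21 other genes linked to the feedback or output of ERK, such as other dual-specificity phosphatases and immediate early factors. They were not sorted by the direction of that link. With OXA, 8 rose and 3 fell in HT29 and 5 rose and 3 fell in HTOXAR3, with medians of 0.24 and 0.20, or 52.4% and 38.1% of the list beside 15.9% and 10.2% of all names, and 31.0% and 20% of those well above background everywhere. With the mean of all probes, 5 in place of 11 were called in HT29, where all names went to 14.3%. *DUSP1*, an inducible nuclear MAP kinase phosphatase (0.65, SE 0.11, adjusted p = 0.00587), and *EPHA2*, a receptor tyrosine kinase gene (0.59, SE 0.09, adjusted p = 0.00257), rose most in HT29 among those well above background on every array compared. In HTOXAR3 the AP-1 gene *FOSL1* (0.91, SE 0.07, adjusted p = 6.36e-06) and *ERRFI1*, an inhibitor of EGFR (0.68, SE 0.08, adjusted p = 0.000242), did so. *SPRY3* (-0.99) and *PHLDA3* (-0.40) fell most in HT29, and *PHLDA3* (-0.64) and *FOS* (-0.59) in HTOXAR3. *PHLDA3* is known as a target of p53 as well, and its place on the list says nothing of ERK alone.

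On adding Curcumin, 1 of these 21 genes rose and 1 fell in HT29, namely *PHLDA3* (0.54, adjusted p = 0.00081) and *CCND1*, which encodes cyclin D1 (-0.36, adjusted p = 0.00829), 9.52% of the list beside 5.53% of all names and 10.9% of those well above background everywhere. In HTOXAR3 (23.8% beside 8.83% and 17.3%) 3 rose and 2 fell, led by *DUSP1* (0.86, adjusted p = 0.00134), *FOS* (0.78, adjusted p = 0.00663), *ETV1* (-0.66, adjusted p = 0.00055) and *SPRY1* (-0.41, adjusted p = 0.0062). Against untreated cells the combination raised 6 and lowered 4 in HT29 and raised 5 and lowered 3 in HTOXAR3, or 47.6% and 38.1% beside 18.6% and 17.5% of all names, and 35.6% and 33.4% of those well above background everywhere. With the mean of all probes, 6 in place of 10 and 5 in place of 8 were called, where all names went to 17% and 16.2%. Of those that exceeded background clearly on each array compared, *DUSP1* (1.19 and 1.06) and *FOSL1* (0.51 and 1.02) rose most in HT29 and HTOXAR3, *SPRY3* fell in both (-0.91 and -0.77), and the other large falls were those of *MYC* in HT29 (-0.59) and *SPRY1* in HTOXAR3 (-0.56). *SPRED3*, named here after its values were seen, was also called as higher in both lines but was not well above background on every array, so it has no place in that order. Before treatment (38.1% of the list called beside 11.5% of all names and 21.5% of those well above background everywhere) 5 were higher in HTOXAR3, among them *IER3* (0.93) and *PHLDA3* (0.90), and 3 were lower, among them *FOS* (-0.65) and *ERRFI1* (-0.63). *IER3*, a stress-inducible gene, was the only one of the 21 whose response to the combination was called as different between the lines (-0.63, SE 0.09, adjusted p = 0.0214).

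**Figure D4:**
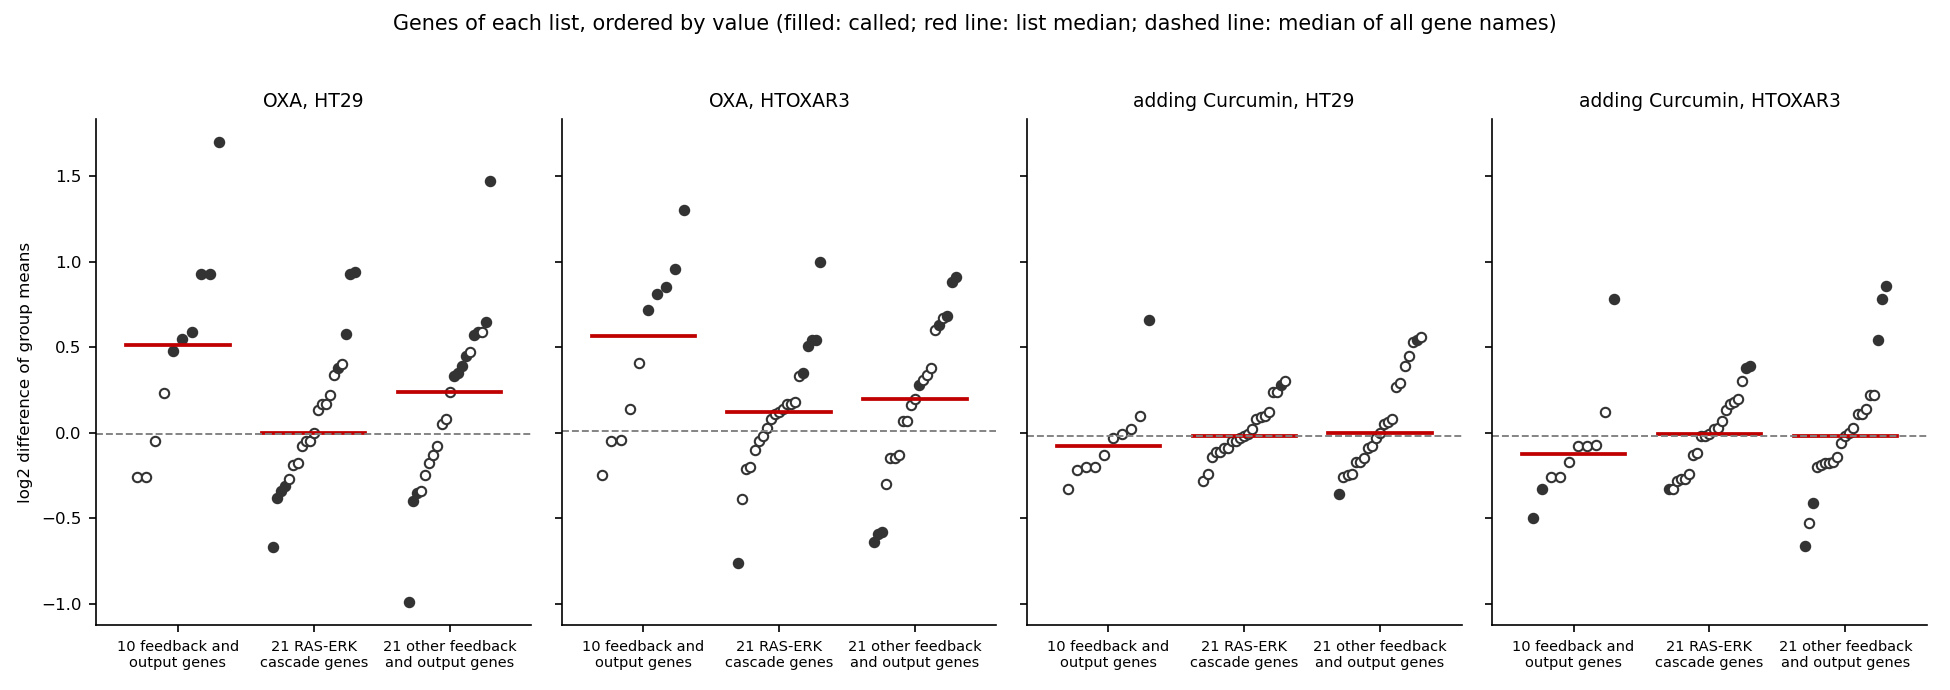
Log2 differences of group means for the 10 feedback and output genes, the 21 cascade genes and the 21 other feedback and output genes, each list ordered by value, for OXA against untreated and for OXA plus Curcumin against OXA in each line. Filled points passed the call, the red line is the median of a list and the dashed line that of all gene names. With OXA the medians of the 10 genes (0.52 and 0.56) lie above those of the cascade (0.00 and 0.12) and of the other outputs (0.24 and 0.20), a description without a test.

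Over the 18 arrays the 10 genes fell into patterns that can be described by Pearson's correlation, without a test since the arrays form 6 groups. *DUSP4* ran with *DUSP5* and *DUSP6* (0.92 each), *DUSP6* with *SPRED1* and *SPRED2* (0.91 each), and *SPRY2* with *PHLDA1* (0.92). The lowest value was that of *SPRY2* and *ETV4* (-0.59). Among the 17406 names well above background with a value on all 18 arrays, those most like *DUSP5* were *SERTAD1* (0.992) and *MFSD11* (0.989), those most like *DUSP4* were *ICAM1* (0.99) and *DDRGK1* (0.987), and those most like *DUSP6* were *NAB2* (0.971) and *BIK* (0.966). *SPRY2* ran most closely with *ESD* (0.988) and *MBOAT2* (0.984), and *PHLDA1* with *CBX6* and *DMBX1* (0.98 each). For *SPRED1* they were *ITPRIP* (0.962) and *ICAM5* (0.957), for *SPRED2* *LYSMD1* (0.955) and *ARHGAP21* (0.949), and for *ETV4* *SH3TC1* (0.957) and *LARP6* (0.955). *SPRY4* (*CENPO*, 0.895, and *SMARCA1*, 0.892) and *ETV5* (the array's THC2493194, 0.95, and *CRYZ*, 0.892) followed.

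Within single slides the called differences kept their direction. Of the 31 called member values among 70, all 31 had the same sign on slide 2 and on slide 3, and so had the 6 that slide 1 allowed. For all 31 the groups compared did not overlap, so these signs were fixed in advance and are no separate support. The rise of *DUSP5* with OXA in HT29 was 1.70, 1.84 and 1.56 on slides 1, 2 and 3, and that of *DUSP6* was 1.09, 0.99 and 0.72. The difference of *SPRY2* between the untreated lines was 0.95 on slide 2 and 0.74 on slide 3. In fits of only the 6 arrays of a comparison, which estimate the spread from fewer arrays, 0 to 3 of the 10 genes stayed called in each comparison of groups, and 0.0442% to 8.32% of all names were called.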

How the data were processed

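The authors deposited 1 Agilent scanner output per array (Feature Extraction 10.7.3.1) with mean and background intensity of 62976 spots. A series table of log2 values from the authors was not used, since its rows carry no gene names. Here the mean intensity was corrected with normexp (offset 0) and the local background, control spots were left out and outlier spots set to missing, arrays were quantile normalized, spots of a probe were averaged, and the brightest probe stood for each gene name. A limma model (limma 3.58.1, R 4.3.3) of the 6 groups over all 18 arrays gave differences, with empirical Bayes moderation and p values adjusted by Benjamini-Yekutieli over all gene names. To be called, a gene needed an adjusted p under 0.05 together with a change of more than 1.2-fold. The number of arrays limits the precision. The fit was tested on simulated gene values, and the steps before it were not. Figures were drawn with Python 3.11.15 and matplotlib 3.10.9.

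The 10 genes and both further lists were chosen with earlier results of these data known. All 10 genes were described, and of each further list the called genes with the 2 largest rises and 2 largest falls among those well above background on every array compared were named. A named result of the lists is not reported here. Alternatives varied background, scaling, probe, filter, adjustment, fold minimum, block, arrays in the fit and single arrays left out. Replicate numbers come from the labels, which describe no pairing. Same-numbered arrays deviated together in every pair for OXA in HT29 (correlations 0.117 to 0.242) and for adding Curcumin in HTOXAR3 (0.109 to 0.195), but not in the other comparisons. Only in these comparisons did every same-numbered pair also share a slide, so a pairing by replicate number and the slide cannot be told apart there.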

Additional observations from a re-analysis of the deposited data

How the results depend on the processing

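Of 1020 member values under the alternatives other than leaving out an array, 956 kept their direction and their side of the threshold, 52 lost the call, 10 gained it and 2 reversed. Sign changes of values without a call in either setting were not counted as reversals. Both reversals came from the second *PHLDA1* probe, which was not above background (-0.22 between the untreated lines and 0.22 for OXA plus Curcumin in HTOXAR3). Of 780 values with an array left out, 756 were unchanged in this sense, 23 lost and 1 gained the call. With a fold change minimum of 2, the number of genes called fell to 0 between the untreated lines, 1 for OXA in each line, 0 for adding Curcumin in each line and 1 for the combination in each line, while the called share of all names fell to 2.8%, 3.26% and 1.29%, 0.608% and 1.00%, and 3.78% and 3.3%, in the same order. In fits of only the groups compared, which hold fewer arrays, these numbers were 0 between the untreated lines, 2 and 2 for OXA, 0 and 0 for adding Curcumin, and 2 and 3 for the combination, in HT29 and HTOXAR3, with 3.47%, 3.7% and 1.64%, 0.0442% and 0.616%, and 5.68% and 8.32% of all names called. For adding Curcumin in HT29 the count was 2 with the processed signal scaled to the 75th percentile (*SPRED1* gained) and 2 with Benjamini-Hochberg adjustment (*SPRY2* gained), and 0 to 1 with single arrays left out. The called share of all names was 5.87%, 10.2% and 3.34% to 4.41% under these settings. For adding Curcumin in HTOXAR3 the count was 1 to 2 with single arrays left out (5.44% to 6.71% of all names), at its lowest without replicate 3 of OXA or of OXA plus Curcumin. For the difference between the lines in the response to the combination the count was 1 with a normexp offset of 50 (1.82% of all names) and 1 with Benjamini-Hochberg adjustment (3.44%), *ETV4* in each. The cause of these changes was not tested. With the replicate number as a block, 3 genes were called between the untreated lines, 6 and 6 for OXA, 1 and 3 for adding Curcumin, 6 and 7 for the combination and 0 for each difference between the lines, *SPRY4* with OXA in HTOXAR3 (0.41, adjusted p = 0.0317, limma with BY) being the only call that the block changed. In the same order, 11.5%, 16% and 10.3%, 5.19% and 8.66%, and 18.8% and 17.5% of all names were called with that block. For the differences between the lines in the response to OXA, to adding Curcumin and to the combination it was 0.909%, 0.0856% and 0.715%. The slide as a block changed no call of the 100 member values. Counts of both further lists moved too. With the mean of all probes, genes called for OXA in HT29 went from 8 to 5 of the cascade and from 11 to 5 of the other outputs, and for the combination those of the other outputs went from 10 to 6 in HT29 and from 8 to 5 in HTOXAR3. The called share of all names was then 14.3% for OXA in HT29, and 17% and 16.2% for the combination. With a normexp offset of 50, cascade calls went from 2 to 4 between the untreated lines, from 1 to 2 and from 3 to 6 for adding Curcumin in HT29 and HTOXAR3, and those of the other outputs from 2 to 5 for adding Curcumin in HT29. With the filter on dim probes the same counts were 6, 3, 6 and 4. Between the untreated lines and for adding Curcumin in HT29 and HTOXAR3, 12.8%, 7.09% and 10.6% of all names were called with the offset. With the filter it was 20%, 10.9% and 16.5% of the names kept. Cascade calls between the untreated lines were 4 with the processed signal scaled to the 75th percentile (12.1% of all names), a setting that changes signal and scaling together. Scaling to the 75th percentile and the mean of all probes each left 0 cascade calls for adding Curcumin in HT29, where *SHC1* had been called, beside 5.08% and 4.91% of all names. For the differences between the lines the counts were 0 or 1 in the cascade. In the other outputs they were 1 for OXA with the offset of 50 (1.76% of all names) and 3 for the combination with that offset (1.82%) or the filter (2.3% of the names kept).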
